A study of Oryctolagus cuniculus with 2 samples.

Results

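The small leucine-rich proteoglycans are a family of matrix proteins, of which decorin (DCN) is the best known member. The 10 genes described here are DCN, BGN, ASPN, LUM, FMOD, KERA, OGN, PRELP, OMD and EPYC, out of 15605 genes that the array annotation names. They were read from probe sets (groups of short probes that together report 1 transcript) whose single annotated symbol is that gene, and each of the 10 had 1 probe set. The family was chosen because DCN and ASPN were already known to be far higher in one of the arrays, so the values of the members are a description and were not tested.

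The samples were retinas of Dutch rabbits. In the retinal vein occlusion (RVO) sample a laser had closed the retinal veins of the right eye, and the lasered spot was cut out before RNA was taken. The control sample is labelled untreated retina, and the methods name the opposite, left eyes as controls without saying whether both arrays came from 1 animal. Both were taken at day 7, and total RNA of each was hybridized to 1 Rabbit Gene 1.0 ST array. Since each condition has 1 array, there is no measure of replicate error, no test was possible, and genes are called higher or lower by size alone, at a limit of 2-fold. The signals are on the log2 scale, where a difference of 1 is 2-fold, and differences are RVO minus control.

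Each of these proteins has a core of leucine-rich repeats that binds collagen, and most carry sugar chains, either chondroitin or dermatan sulfate or keratan sulfate. They line collagen fibrils and set their width and spacing, which keeps the cornea clear and gives strength to skin, sclera and tendon. Several also bind growth factors and receptors, and soluble decorin and biglycan act as signals in injured tissue. The family is divided by the spacing of cysteines near the start of the protein into class I (DCN, BGN and ASPN), class II (LUM, FMOD, KERA, PRELP and OMD) and class III (OGN and EPYC).

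DCN, ASPN, LUM, KERA and BGN were more than 2-fold higher after RVO, and no member was lower by as much. OGN, PRELP and FMOD were within 2-fold, and OMD and EPYC stayed under a log2 signal of 5 in both arrays, the limit below which the methods omit a gene as low. Across all 12724 genes that passed this limit, 3.50% were more than 2-fold higher and 0.479% more than 2-fold lower. The family was chosen on this same contrast, so its 5 of 8 genes over 2-fold are not evidence about the family beyond the choice. ASPN and KERA passed the signal limit through the RVO array alone, so they had to differ in order to be measured. The median difference was 1.78 over the 8 measured members and 1.15 over all 10, beside -0.04 over all measured genes. At a limit of 1.5-fold 6 of the 8 were higher and none was lower, where 7.25% and 3.03% of all genes were, and at 3-fold 4 were higher and none was lower, where 1.52% and 0.0629% were.

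**Figure D1:**
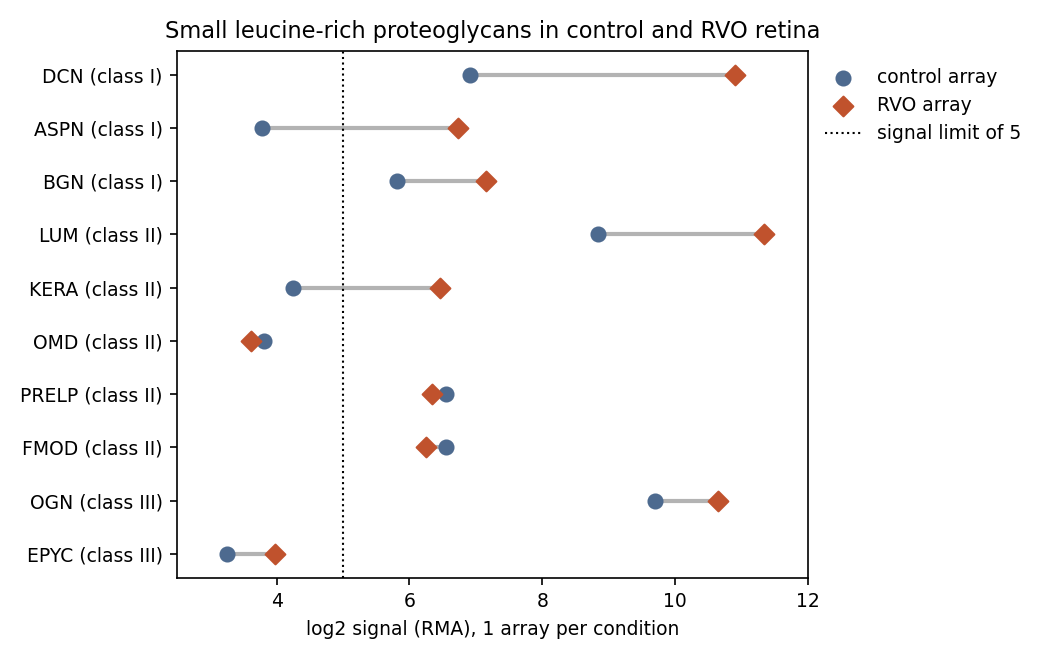
Log2 signal (x axis) of the 10 family members (y axis, grouped by class) in the control array (circles) and the RVO array (diamonds), 1 array per condition, with the signal limit of 5 dotted. DCN spans the longest distance, from 6.90 to 10.90, while PRELP and FMOD lie a little lower in the RVO array and OMD and EPYC stay left of the limit.

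All 3 members of class I were over 2-fold, but the family was chosen for DCN and ASPN, so this count is not evidence about the class. DCN, which binds collagen I fibrils and holds TGF-β and several receptor tyrosine kinases in check, had a log2 signal of 6.90 in control retina and 10.90 after RVO. This 15.9-fold difference was the fifth highest of 12724 genes, and both signals were above 5. ASPN, which encodes asporin, a relative of decorin with a run of aspartates and no typical sugar chain, had 3.78 in control retina and 6.74 after RVO. Its difference of 2.95, or 7.73-fold, rests on a control signal under 5. BGN, which encodes biglycan, a ligand of Toll-like receptors when it is released from the matrix, had 5.81 and 7.16, a 2.54-fold difference. The difference of DCN exceeded that of its closest relative BGN by 2.65 on the log2 scale.

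Class II was divided. LUM, which encodes lumican, a keratan sulfate proteoglycan of the cornea and sclera, had a log2 signal of 8.85 in control retina and 11.34 after RVO, which is 5.63-fold. KERA, which encodes keratocan, a proteoglycan of the corneal stroma, had 4.25 and 6.46, or 4.62-fold from a control signal under 5. FMOD, which encodes fibromodulin, a protein that binds collagen at the same region as lumican, had 6.54 in control retina and 6.25 after RVO. Its difference was -0.29, and the difference of LUM exceeded it by 2.78. PRELP, whose protein links basement membranes to the collagen matrix, had 6.55 and 6.33, a difference of -0.22. OMD, which encodes osteomodulin, a keratan sulfate proteoglycan of bone, had 3.81 and 3.62, both under the limit.

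In class III, OGN, which encodes osteoglycin (mimecan), had a log2 signal of 9.70 in control retina and 10.65 after RVO. It was 1.94-fold higher, a difference of 0.95 that missed the 2-fold limit, while BGN with 1.34 was the member nearest to the limit from above. OGN ranked 469 from the top of 12724 genes, and 95% of all measured genes had a difference below 0.79. EPYC, which encodes epiphycan of growth cartilage, had 3.26 and 3.98, a difference of 0.72 between signals that were both under 5.

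Where a gene has several probe sets past the limit, as 118 genes had, the pooled SD of the log2 difference between probe sets was 0.19. No member has a second probe set, so no member has such a check of its own. The differences of FMOD and PRELP, at -0.29 and -0.22, are close to this SD. The SD covers disagreement between probe sets only and not the spread between animals.

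**Figure D2:**
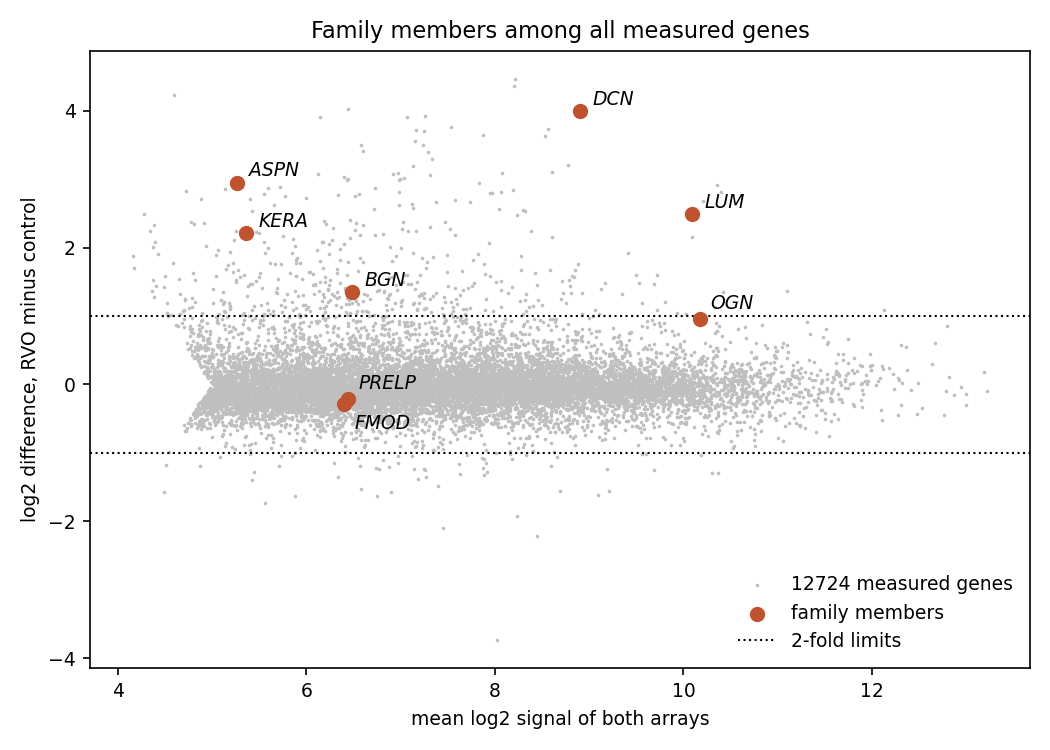
Log2 difference (RVO minus control, y axis) against the mean log2 signal of both arrays (x axis) for 12724 measured genes (grey points), with the 8 measured family members in orange and the 2-fold limits dotted. DCN at 3.995 and LUM at 2.49 lie above the dense cloud at high signal, ASPN and KERA near its low-signal edge, and PRELP and FMOD within it.

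The 5 genes whose log2 difference was nearest to that of DCN, over these 2 arrays, were LOC100008687 at 4.02, GRO-A at 3.92, MMP12 at 3.91, GPNMB at 3.91 and LOC100341104 at 4.23. The lens crystallin gene CRYGS, at 4.47, and the muscle marker MYL1, at 4.36, also ranked above DCN. MMP12 is the elastase of macrophages, GPNMB a membrane glycoprotein found in macrophages and GRO-A a CXC chemokine. The control signals of LOC100008687, MMP12 and LOC100341104 were 4.43, 4.19 and 2.48, under the limit that DCN passed in both arrays.

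Most genes of the family lie side by side in the genome, and the gene order of the RefSeq rabbit assembly mOryCun1.1 was used to read them with their neighbours. In the decorin cluster the order is EPYC, KERA, LUM and DCN, with differences of 0.72, 2.21, 2.49 and 3.995. All 4 were above 0, and DCN, for which the family was chosen, was the highest. The difference of EPYC rests on signals under 5, and that of KERA on a control signal under 5. Whether the differences follow gene order was not tested. The genes named on the array next to this cluster were CCER1 on the side of EPYC, at 2.94 and 2.93 in the control and RVO arrays and so under the limit, and BTG1, an inhibitor of cell growth, on the side of DCN, at 9.48 and 9.62. The calcium pump gene ATP2B1, the next beyond CCER1, had 11.14 and 11.15.

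In the asporin cluster the order is ECM2, ASPN, OMD and OGN, and only ASPN was over 2-fold. OMD, which lies between ASPN and OGN, differed by -0.20, with both signals under 5. ECM2, a related matrix protein outside the 10 members, had 4.07 in control retina and 4.74 after RVO, also under the limit. In the fibromodulin cluster FMOD, PRELP and OPTC differed by -0.29, -0.22 and -0.10. OPTC encodes opticin, a class III relative of the vitreous. BGN stands alone, between LOC103345588 at 0.01 and the cyclin gene CCNQ at 0.26.

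Of 24 neighbours read, 3 on each side of each of these 4 places, 21 passed the signal limit and 1 was over 2-fold. This was CHI3L1, a chitinase-like protein of macrophages and reactive glia, which lies near FMOD and had a log2 signal of 7.53 in control retina and 9.69 after RVO. The other 20 measured neighbours lay between -0.40 and 0.41.

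**Figure D3:**
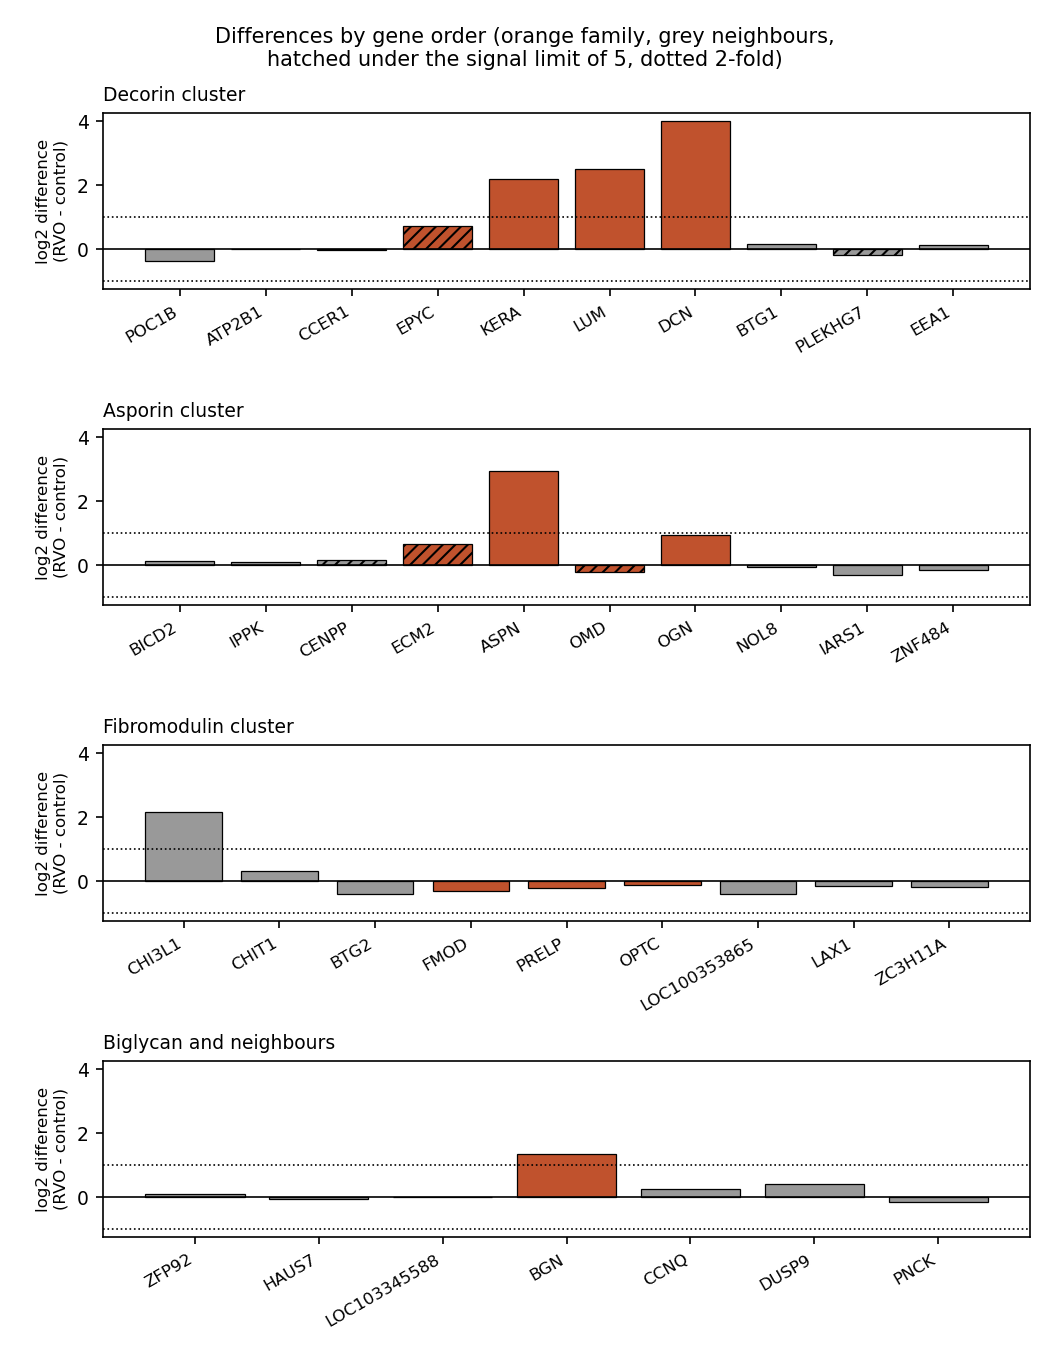
Log2 difference (RVO minus control, y axis) of family genes (orange) and their nearest array-named neighbours (grey) in genomic order, 1 panel for each place, with bars hatched where both signals were under 5 and the 2-fold limits dotted. DCN, LUM and KERA stand above flat neighbours, ASPN is the only bar over the limit in its cluster, and CHI3L1 is the only grey bar over it.

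Other proteoglycans were read from the same arrays. Of 5 measured leucine-rich relatives outside the 10 members, none was beyond 2-fold, and their differences lay between -0.13 and 0.04. Among them were NYX, the nyctalopin of ON bipolar cells, with 7.39 in control retina and 7.26 after RVO, and PODN, which encodes podocan, with 7.79 and 7.81. Of 19 measured proteoglycans of other families none was beyond 2-fold, with a median of 0.08. The cell surface proteoglycans SDC4 and SDC2 differed most, by 0.98 and 0.89, and SPOCK1 differed by -0.70. SDC4 passed 2-fold when a trend of the difference with signal was removed. IMPG1 and IMPG2, proteoglycans of the matrix around photoreceptors, differed by 0.20 and 0.12. Of all measured genes 3.50% were more than 2-fold higher and 0.479% more than 2-fold lower. Finding none in lists this short is near that share. Whether the 10 members differ from these lists was not tested.

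The collagens that these proteoglycans bind were partly higher. Of 12 measured collagen genes of fibrils, their surface and collagen VI, 6 exceeded 2-fold upwards and none downwards, around a median of 0.95. Over all measured genes 3.50% and 0.479% did so. COL14A1, which encodes a collagen of the fibril surface, had 3.92 in control retina and 5.95 after RVO, from under the limit. COL12A1, of the same kind, was higher by 1.37. The fibril chains COL11A1, COL1A1, COL3A1 and COL1A2 were higher by 1.18, 1.17, 1.13 and 1.01. COL5A1, whose chain starts fibrils, and COL2A1, the collagen of cartilage and vitreous, differed by 0.90 and 0.00.

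The 17 measured genes of collagen maturation had a median difference of 0.05. Where 3.50% and 0.479% of all genes passed the limit upwards and downwards, 4 of the 17 did upwards and none downwards. These were the lysyl oxidases LOX and LOXL2, which cross-link collagen, at 1.49 and 1.10, the procollagen protease ADAMTS3 at 1.19 and the lysyl hydroxylase PLOD2 at 1.002. PLOD2 lay at the limit, and 3 of the 17 were over 2-fold after quantile normalization was repeated, without it. The control signal of LOXL2 was 4.64.

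No measured enzyme that builds the sugar chains was beyond 2-fold, where 3.50% of all genes were higher and 0.479% lower by as much. For 18 enzymes of the linker and of chondroitin and dermatan sulfate the differences lay between -0.51 and 0.48. XYLT2 and XYLT1, which place the first sugar on the core protein, differed by 0.48 and -0.49. DSEL, an epimerase that makes dermatan sulfate, differed by -0.51, and CHPF2, which takes part in chain elongation, by 0.39. Among 6 enzymes of keratan sulfate, the chain of lumican and keratocan, the sulfotransferase CHST2 differed most, with 8.33 in control retina and 8.80 after RVO. The enzymes B3GALT6, CHSY1, CHST14, CHST5 and CHST6 are not named on the array and could not be read.

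Of 8 measured proteases that cut proteoglycans or matrix, 3 passed the 2-fold limit upwards and none downwards. The shares over all measured genes were 3.50% and 0.479%. MMP12 had a log2 signal of 4.19 in control retina and 8.10 after RVO. MMP1, the interstitial collagenase, which the study names as a target of decorin, had 5.37 and 8.94. ADAMTS1, a protease of large proteoglycans, had 9.77 and 10.90. ADAMTS5 and MMP14 differed by 0.48 and 0.44.

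Of 24 measured receptors and ligands of decorin, biglycan or lumican, 7 passed the limit upwards and 1 downwards, around a median of 0.33. Among all measured genes 3.50% passed it upwards and 0.479% downwards. The matrix protein fibronectin, FN1, was higher by 3.64, the lipopolysaccharide coreceptor CD14 by 2.84, the hyaluronan receptor CD44 by 2.19 and the growth factor HGF by 1.58. CD14 is also counted among the microglia and macrophage markers below. TLR4, a receptor of free biglycan, had 4.82 in control retina and 6.24 after RVO, whereas TLR2, the other such receptor, had 6.01 and 6.02. CCN2, a growth factor that decorin binds, was higher by 1.24 and the TGF-β receptor TGFBR2 by 1.03. Myostatin, MSTN, a TGF-β relative that decorin also binds, was the gene that was lower, at 7.55 and 6.40.

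Other partners of decorin were within 2-fold. The TGF-β ligands TGFB1, TGFB3 and TGFB2 differed by 0.90, 0.45 and -0.01. The receptor tyrosine kinases MET, EGFR and IGF1R, which decorin binds, differed by 0.10, 0.06 and 0.33, and the VEGF receptor KDR by -0.31. LRP1, an endocytic receptor of decorin, differed by 0.69.

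Markers of other tissues or cell types were also higher in the RVO array. Beside the counts below, 3.50% of all measured genes were more than 2-fold higher and 0.479% more than 2-fold lower. Of 15 measured skeletal muscle markers all 15 exceeded 2-fold upwards, around a median of 2.67, among them the myosin light chain MYL1 at 4.36 and the thin filament protein NEB at 3.71. Their summed linear signal was 880.1 in control retina and 6191 after RVO. The control signals of these markers ran from 4.80 to 6.71 and the RVO signals from 6.92 to 10.38. Of 15 measured markers of microglia and macrophages 13 were higher, such as GPNMB and the protease CTSS at 2.80, and the sum went from 1271 to 5355. Of 19 measured fibroblast markers 8 were over 2-fold upwards and none downwards, around a median of 0.73. Led by the complement protease C1S at 2.73, the calcification inhibitor MGP at 2.70, the protease FAP at 2.01 and the matrix protein DPT at 1.97, these also include LOX and 3 collagens named above, and without the genes of both collagen lists 4 of 15 were higher. The control signals of C1S, FAP and DPT were 4.64, 3.36 and 4.08, under the limit. SFRP1 differed by -0.64 and the fibroblast receptor PDGFRA by -0.41, the 2 markers below 0, while 17 were above 0. The fibroblast sum was 6074 and 8898. SFRP2 and MFAP5, which had the highest signals in this sum, differed by 0.44 and 0.29. Their signals were 11.76 and 10.48 in control retina and 12.20 and 10.77 after RVO. The part of these tissues and cell types in the differences of DCN, LUM, ASPN, KERA and BGN was not tested.

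The sum of the 8 measured family members went from 1688 to 6604. LUM, DCN and OGN had the highest RVO signals in this sum, at 11.34, 10.90 and 10.65. FMOD and PRELP differed by -0.29 and -0.22, so the sum does not describe each member. Of 9 measured markers of corneal stroma, sclera or cartilage only KERA itself was over 2-fold, and the median of the list was 0.00, with SOX9 at 0.49 and ACAN at -0.29. SOX9 is also among the Müller glia markers. KERA is the only family member in this list, which leaves out LUM. Among pericyte and smooth muscle markers 4 of 9 were over 2-fold higher and none lower, where 3.50% and 0.479% of all genes were. These were ACTA2 at 3.06, ABCC9 at 1.78, TAGLN at 1.17 and DES at 2.78, of which DES is also among the skeletal muscle markers. The count was 3 with the mean or the lowest of several probe sets per gene. The control signal of ABCC9 was 4.73, under the limit. The sum of the 9 was 493.8 and 1276, while the pericyte receptor PDGFRB differed by 0.33. RGS5 at -0.41 and NOTCH3 at -0.06 were the 2 markers of this list below 0. As a check of the tissue label, 10 measured rod and cone markers had signals of 8.46 to 12.99 in control retina and 8.04 to 12.80 after RVO, and all 10 were lower after RVO by less than 2-fold, around a median of -0.47. In whole tissue RNA, more cells of a type and more RNA per cell cannot be told apart.

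**Figure D4:**
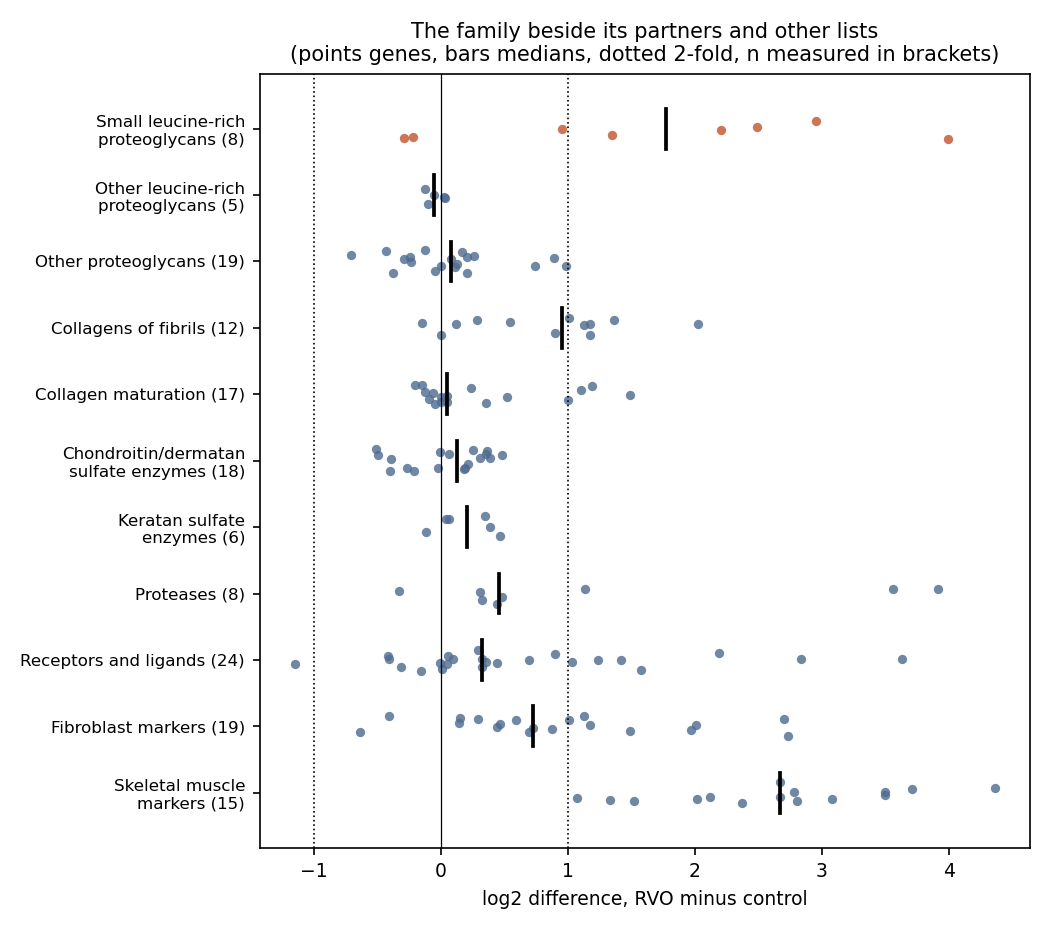
Log2 difference (RVO minus control, x axis) of each measured gene (points) in the family and in 10 other gene lists (y axis, number of genes measured in brackets), with list medians as bars and the 2-fold limits dotted. The family spreads from -0.29 to 3.995, and the muscle markers all lie above 2-fold. The other proteoglycans and sugar chain enzymes lie within 2-fold, as do most measured genes.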

How the data were processed

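The deposited table holds log2 signals of 26193 probe sets for the control and the RVO array. The authors made these log2 values from Rabbit Gene 1.0 ST arrays by RMA (background correction, quantile normalization and a robust summary per probe set) in R 3.6.0, with an annotation not given in the sources used here, and no further normalization was applied. Quantile normalization gives both arrays nearly the same distribution of signals, so a general shift in RNA amount is not visible. The platform annotation gave 1 symbol to 15816 probe sets, several to 376 and none to 10001, and only the first were used, with the probe set of highest mean signal for each gene. Genes whose higher signal was under 5 were left out, as in the methods. Gene order came from RefSeq. A script in Python 3.11.15 with pandas 2.3.3 and statsmodels 0.14.6 computed the differences and the alternatives, and was tested on simulated data. The arrays carry no counts, and their number, 1 per condition, limits the precision.

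The members and the 20 other gene lists were chosen with earlier results of these data known. Named genes were all members, from each list genes beyond 2-fold (of the muscle and macrophage markers a few of the largest) and others with the largest difference or highest signal, the nearest neighbours on the genome, the 5 genes closest to DCN and genes known to bind decorin. Lists not described in the report gave 1 of 9 endothelial, 1 of 12 Müller glia, 1 of 8 lens and 1 of 9 housekeeping genes higher by over 2-fold, and none of 11 ganglion cell or 10 pigment epithelium genes, while 5 ganglion cell genes were lower (4 under each of the other scalings, where 1 or 2 endothelial genes were higher). Over all measured genes 3.50% were higher and 0.479% lower by over 2-fold. No sequence is shown, since no sequence table was used here.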

Additional observations from a re-analysis of the deposited data

How the results depend on the processing

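The count of members over 2-fold, 5 higher and 0 lower, was the same with no filter, with a filter at 6, with each array centred on its own median, with quantile normalization repeated and with a trend with signal removed. The 5 had RVO signals over 6, and OMD and EPYC were within 2-fold, so the filters could not change this count. Centring and repeated normalization could change little, since RMA had already quantile normalized the arrays, whose medians were 6.25 and 6.23. The same count thus says nothing about the spread between animals. The count was 6 at a limit of 1.5-fold, with OGN added, and 4 at 3-fold, without BGN. With no filter on low signals the median difference of the members was 1.15 in place of 1.78, since OMD and EPYC then entered. Across these scalings DCN lay between 3.98 and 4.02, LUM between 2.49 and 2.51, ASPN between 2.95 and 3.05, KERA between 2.21 and 2.30, BGN between 1.34 and 1.42, OGN between 0.95 and 0.97 and FMOD between -0.29 and -0.22, and no member changed sign. Each member has 1 probe set, so the choice between probe sets could not change any of these values. At 3-fold 1 of the 12 collagens, none of the collagen maturation genes, 3 of the receptors and ligands and 4 of the fibroblast markers were higher, and over all genes 194 were higher and 8 lower, beside 923 and 386 at 1.5-fold. No paired analysis was possible because each condition has 1 array. Signals under 5 limit the differences of ASPN, KERA, OMD and EPYC.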
